A study of Capra hircus with 40 samples.

Results

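Gene expression in the whole ovary and the whole uterus of female goats was compared at 6 months of age. The comparison used 10 of the series' 40 RNA sequencing libraries, chosen by their labels: 5 of ovary and 5 of uterus, numbered individual 1 to 5 in each organ. The labels do not say whether an ovary and a uterus of the same number came from 1 goat. The series follows Jining gray goats through sexual maturation, at 1 day and at 2, 4 and 6 months after birth, and all animals came from 1 farm under the same conditions. No treatment was given, and the labels name no stage of the estrous cycle, so follicle and cycle stage may differ between the individuals of a group. Libraries are named here by organ and individual number.

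The ovary holds follicles, in which granulosa cells and theca cells surround the oocyte, make steroids and answer to the pituitary gonadotrophins. The uterus arises from the Müllerian duct, whose regions are patterned by HOX genes, and consists of a glandular lining, a stroma that responds to estrogen and progesterone, and a wall of smooth muscle. These organs share stroma, vessels and an outer mesothelium, so organ-restricted genes stand against a large common background. In RNA from a whole organ, a lower level of a gene can reflect fewer cells of a type or less RNA per cell, and these cannot be told apart.

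Levels are given in CPM, read counts scaled to 1 common library total, which are not corrected for gene length and are therefore compared between libraries but not between genes. Values of 5 libraries are listed in the order of individuals 1 to 5. Differences are log2 fold changes, ovary minus uterus, ± SE, so that a negative value is higher in the uterus. Within an organ each library has its own individual number, so p-values measure the spread between these animals. Unless stated, they are from a fit without a block on the individual number, which makes no use of a possible pairing of same-numbered libraries. A gene was called when edgeR's quasi-likelihood test gave a Benjamini-Hochberg adjusted p under 0.05 over all genes tested and the absolute log2 fold change was at least 1.

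The ovary libraries held 43470685 to 62005791 counts and the uterus libraries 51019710 to 62703770 counts. Of the markers examined against the organ labels, FSHR, AMH, FOXL2, NR5A1, INHA, GDF9 and ZP3 were higher in every ovary library than in any uterus library, and HOXA10, HOXA11 and MSX1 the reverse. The uterine markers HOXA13, ACTG2 and EPCAM overlapped between the organs. Of other tissues, ADIPOQ of fat was at 0 to 0.487 CPM, UPK2 of the bladder lining at 0 counts in every library and MC2R of the adrenal cortex at 0 to 0.0968 CPM. PNMT, an enzyme of the adrenal medulla, reached 5.72 CPM in uterus library 2, and CKM, the muscle creatine kinase, reached 5.61 CPM in ovary libraries 3 and 5. Markers of ciliated and mesothelial cells were higher still in some libraries, up to 124 CPM for FOXJ1 and 53.3 CPM for MSLN. OXT, the oxytocin gene that is active in the ruminant corpus luteum, was at 0 to 0.565 CPM.

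Several libraries stood apart from the others of their organ. Ovary libraries 1 and 4 were rich in genes of motile cilia and epithelia, and uterus library 3 in genes of motile cilia. Ovary library 2 had the lowest levels of the granulosa and theca genes FSHR, AMH, INHA and CYP17A1, and uterus library 2 had the highest levels of several secreted proteins of the uterine lining. The first 3 of these libraries were singled out after seeing the data. Ovary libraries 1 and 4 were chosen for their counts of motile cilia and epithelial genes, and uterus library 3 for motile cilia genes. Fits without them describe the remaining libraries and are no separate evidence, least of all for those genes.

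Of 18066 genes tested, 1214 were called (6.72%): 738 were higher in the ovary (4.09%) and 476 higher in the uterus (2.63%). Without the fold threshold the share called was 7.42%. Counts of called genes in the lists below are to be read beside the 4.09% and 2.63% of all genes tested. The median log2 fold change of all genes tested was 0.00827. The 5 libraries of an organ did not overlap those of the other for 647 of the 738 and 394 of the 476, beside 5.02% and 3.55% of all genes tested. Calls and overlap rest on the same values, so this is no separate evidence for the calls. Of the genes called higher in the ovary, 103 had 0 counts in all 5 uterus libraries, and 11 of those called higher in the uterus had 0 counts in all 5 ovary libraries. Such genes passed the filter on low counts only through the organ where they are high, so for them the lack of overlap was given in advance. With ovary libraries 1 and 4 left out, 821 genes were higher in the ovary (4.40% of 18644) and 935 higher in the uterus (5.02%). With uterus library 3 left out as well, these counts were 775 (4.23% of 18326) and 748 (4.08%). With a block on the individual number in the fit, 750 genes were called, of which 666 were among the 1214. Of the named genes that were called, 22 were not called in that fit, and some of these are listed under the dependence on processing.

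**Figure D1:**
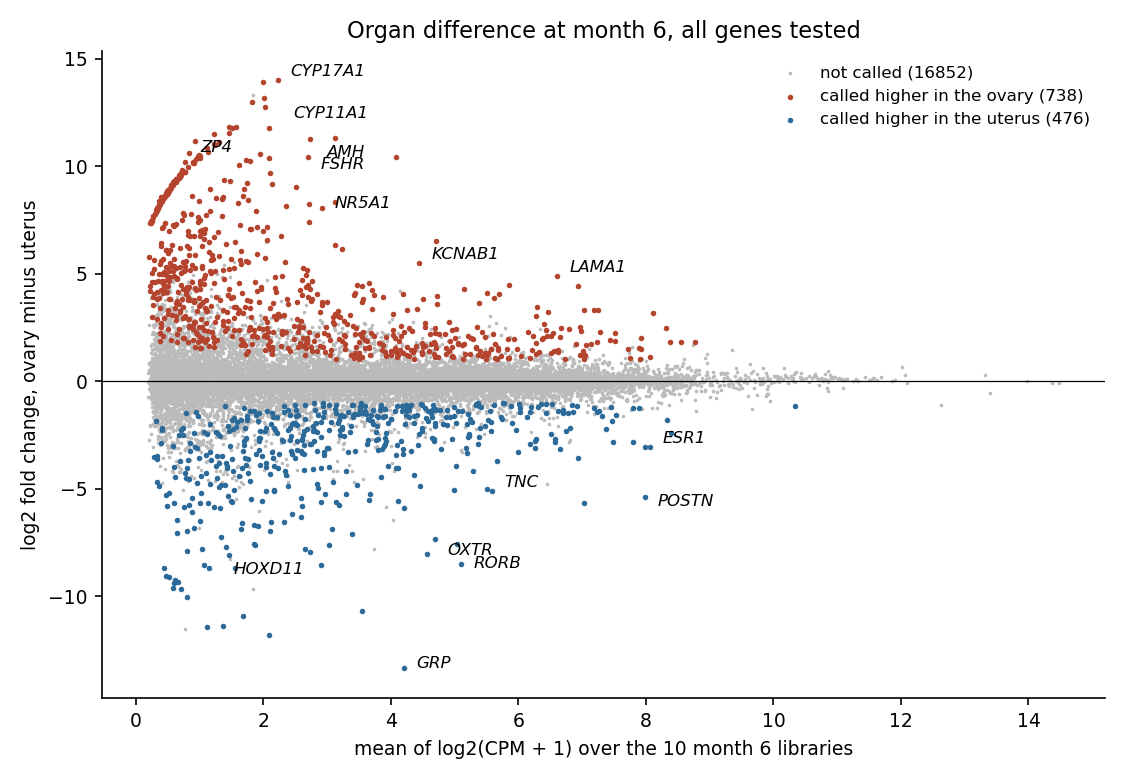
Each point is 1 of the 18066 genes tested, with its mean log2(CPM + 1) over the 10 libraries on the horizontal axis and its log2 fold change, ovary minus uterus, on the vertical axis. The 738 genes called higher in the ovary lie above 0 and the 476 called higher in the uterus below it. The fitted value of a gene at 0 counts in an organ depends on the prior count and is not a measured fold.

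All calls among genes of steroid synthesis and of theca cells were higher in the ovary. Of 25 genes listed, 19 were tested and 6 were called, with a median log2 fold change of 0.89 and 5 of the 19 below 0; DESeq2 called 8 higher in the ovary and 1 higher in the uterus. The 6 were CYP11A1, CYP17A1, LHCGR, NR5A1, APOA1 and APOE. CYP17A1, the enzyme that opens the path to androgens, was at 59.6, 0.323, 43.8, 19.2 and 68.6 CPM in the ovary libraries and had 0 counts in every uterus library. Its level in the ovary was at least 3648-fold higher than the floor of 3 counts over the uterus group (adjusted p = 0.0112), while ovary library 2 lay far below the other 4. CYP11A1, the side-chain cleavage enzyme that starts steroid synthesis, was at 83.9, 24.6, 131, 41.1 and 186 CPM in the ovary and 0.159, 0, 0, 0 and 0 CPM in the uterus. The groups did not overlap, and the log2 fold change was 11.30 ± 1.14 (adjusted p = 0.000833). NR5A1, the nuclear receptor that activates steroid enzyme genes, was at 24.8, 47.2, 86.2, 38.9 and 65.8 CPM against 0.686, 0.113, 0.11, 0.0383 and 0 CPM (8.06 ± 0.98, adjusted p = 0.00137). Uterus library 1 held the highest of the low uterine values.

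LHCGR, the receptor for luteinizing hormone, was at 11.2, 0.848, 20.02, 10.2 and 29.4 CPM in the ovary and at most 0.0383 CPM in the uterus (9.24 ± 1.12, adjusted p = 0.00135). INSL3, a peptide hormone of theca cells, was at 8.71, 0.0605, 16.9, 7.43 and 19.2 CPM in the ovary and at 0 counts in the uterus; it was not tested, because ovary library 2 was too low for the filter, and its mean level was at least 949-fold higher. STAR, which carries cholesterol into mitochondria, was at 13.9, 1.74, 9.87, 7.36 and 10.3 CPM in the ovary and 4.08, 0.45, 2.08, 0.249 and 0.862 CPM in the uterus, and the groups overlapped (2.50 ± 0.79, adjusted p = 0.0873); it was called without uterus library 1 (3.27, adjusted p = 0.0345) and in DESeq2 (adjusted p = 0.00652). CYP19A1, the aromatase that forms estrogens, was at 8.06, 1.86, 20.8, 7.06 and 374 CPM in the ovary, where library 5 held most of it, and at 0 in 4 uterus libraries and 0.110 CPM in the other. Its call (11.79 ± 2.13, adjusted p = 0.00731) was lost without uterus library 3 (adjusted p = 0.0557). In limma-voom, which gave 1246 calls in all, neither CYP17A1 (adjusted p = 0.146) nor CYP19A1 (adjusted p = 0.127) passed.

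Granulosa cell genes were called higher in the ovary for 12 of the 28 listed, all of which were tested, and higher in the uterus for none (median 1.19, 7 of 28 below 0). In limma-voom 5 were called. FSHR, the receptor for follicle-stimulating hormone, was at 39.8, 2.91, 157, 31.3 and 129 CPM in the ovary and 0.0638, 0, 0.146, 0.0383 and 0 CPM in the uterus (10.44 ± 1.32, adjusted p = 0.00156). AMH, the anti-Müllerian hormone of growing follicles, was at 42.9, 2.18, 132, 43.2 and 174 CPM against 0, 0.0375, 0, 0.0766 and 0.0392 CPM (11.29 ± 1.37, adjusted p = 0.00137). INHA, the inhibin alpha subunit, was at 31.4, 1.7, 94, 30.7 and 205 CPM against 0.175, 0.206, 0.164, 0.479 and 0.196 CPM (8.23 ± 1.20, adjusted p = 0.00271). For these genes ovary libraries 3 and 5 were the highest, libraries 1 and 4 lay between, and library 2 was the lowest yet above every uterus library. FOXL2, the transcription factor that maintains granulosa identity, had another order: 5.43, 81.2, 47.1, 8.12 and 23 CPM in the ovary, highest in library 2, against 1.18, 0.90, 1.41, 0.69 and 0.255 CPM in the uterus (5.19 ± 0.82, adjusted p = 0.00365).

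Other granulosa genes called were CYP19A1, HSD17B1 and AMHR2, and 9 of the 12 calls held whichever single library was left out. The summed CPM of the 28 genes was 1448, 1177, 3015, 1401 and 3925 in the ovary and 1106, 895, 661, 568 and 618 in the uterus, without overlap. INHBA, the activin beta A subunit, was at 4.44, 6.13, 6.84, 5.34 and 31 CPM in the ovary and 10.1, 59.1, 0.53, 0.92 and 0.804 CPM in the uterus, where library 2 exceeded every ovary library (-0.39 ± 1.22, adjusted p = 0.922); without that library the log2 fold change was 1.81. With ovary libraries 1 and 4 left out, 10 granulosa genes were called, and 9 with uterus library 3 left out as well. FSHR, AMH, INHA and HSD17B1 did not pass in limma-voom (adjusted p = 0.11, 0.126, 0.155 and 0.106).

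Oocyte genes gave the highest share of calls among the lists. Of 28 genes listed for the egg coat and the egg, 23 were in the table, 22 had counts and 20 were tested. Of these, 17 were called higher in the ovary and none higher in the uterus, with a median log2 fold change of 5.47. The count ran from 13 to 17 when each library was left out in turn. Members below the filter's cutoff in every uterus library were tested only because they passed it in the ovary, so the share called does not describe all genes listed. ZP3, an egg coat glycoprotein, was at 7.14, 18.5, 5.17, 5.96 and 8.73 CPM in the ovary, highest in library 2, and 0, 0.15, 0.0913, 0.0383 and 0 CPM in the uterus (7.29 ± 0.95, adjusted p = 0.00175). ZP4, another egg coat glycoprotein, was at 10.6, 16.7, 6.18, 8.33 and 16.7 CPM in the ovary and had 2 counts in the whole uterus group. The ratio of the group means was 1624, with a 95% interval of 449 to 13420 that covers counting error only (adjusted p = 0.000236). FIGLA, the transcription factor that turns on egg coat genes, was at 1.98, 7.95, 0.855, 2.99 and 3.94 CPM and at 0 counts in the uterus, at least 322-fold higher in the ovary (adjusted p = 0.00278).

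The oocyte growth factors differed in how far they were restricted to the ovary. BMP15 was at 2.4, 1.31, 1.12, 0.276 and 2.73 CPM in the ovary and at 0 counts in the uterus, at least 151-fold higher (adjusted p = 0.00478). GDF9 was at 4.85, 4.58, 2.63, 3.29 and 3.55 CPM in the ovary and 1.16, 1.63, 2.14, 1.23 and 1.08 CPM in the uterus, without overlap (1.39 ± 0.31, adjusted p = 0.0215), but its call was lost in 5 of the 10 fits that left 1 library out (adjusted p from 0.0503 to 0.0597) and with ovary libraries 1 and 4 left out (adjusted p = 0.0574). WEE2, the oocyte kinase that holds meiotic arrest, was at 1.21, 1.09, 1.03, 0.644 and 0.936 CPM and at 0 counts in the uterus, at least 91.3-fold higher (adjusted p = 0.00142). Other oocyte genes called included LHX8, NLRP5, NLRP9, NLRP14, PADI6, KHDC3L and ZAR1, and 13 of the 17 calls held whichever single library was left out. With a block on the individual number 13 oocyte genes were called, and BMP15 (adjusted p = 0.0648), GDF9 (0.086) and WEE2 (0.0743) were not. Summed over the list, the ovary libraries held 50.4 to 112 CPM and the uterus libraries 3.46 to 6.54 CPM.

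Germ cell and meiosis genes were called higher in the ovary for 8 of the 25 tested and higher in the uterus for none (median 1.47). DAZL, a germ cell RNA-binding protein, was at 0.387, 1.07, 0.57, 0.851 and 0.195 CPM in the ovary and at 0 counts in the uterus, at least 54.4-fold higher (adjusted p = 0.00439). DAZL did not pass with the block on the individual number (adjusted p = 0.0929). TDRD5, a Tudor domain protein that acts in silencing of transposons, was at 1.58, 8.48, 1.75, 2.76 and 2.16 CPM against 0.0638, 0, 0, 0 and 0 CPM (7.64 ± 1.09, adjusted p = 0.00247). PIWIL2, a PIWI protein of the same pathway, was at 1.95, 2.5, 2.26, 1.54 and 9.55 CPM against 0, 0.131, 0, 0 and 0 CPM (7.0 ± 1.26, adjusted p = 0.0071), with ovary library 5 the highest. SMC1B, a cohesin subunit of meiotic chromosomes, was at 0.419, 1.74, 0.395, 0.759 and 0.351 CPM against 0.0638, 0, 0, 0 and 0 CPM (5.45 ± 1.04, adjusted p = 0.00954). DDX4, the germ cell helicase, was higher in ovary library 2 than elsewhere, at 1.27, 5.93, 1.95, 0.92 and 1.15 CPM in the ovary and 0.399, 0.188, 1.06, 0.287 and 0.294 CPM in the uterus, and was not called (2.31 ± 0.66, adjusted p = 0.0612). It was called without uterus library 3 (2.88, adjusted p = 0.0291), without ovary libraries 1 and 4 (2.73, adjusted p = 0.0417), without all 3 (3.34, adjusted p = 0.0196) and in DESeq2 (adjusted p = 0.00577). The summed level of this list overlapped between organs, at 172 to 267 CPM in the ovary and 142 to 249 CPM in the uterus.

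Transcription factors of the gonad's somatic cells were higher in the ovary for 11 of the 26 tested and higher in the uterus for none (median 1.47). LHX9, a LIM homeobox factor needed for gonad formation in the mouse, was at 2.56, 14.4, 9.84, 10.6 and 6.59 CPM in the ovary and at 0 counts in the uterus, at least 768-fold higher (adjusted p = 0.00116). It had no count in any of the 5 uterus libraries. TCF21, a factor of stromal cells in several organs, was at 31.1, 102, 74.8, 42.8 and 60.9 CPM against 13.9, 6.19, 14, 11.7 and 8.86 CPM (2.50 ± 0.34, adjusted p = 0.00203). GATA4, a zinc finger activator of gonadal genes, was at 23.4, 37.1, 52.9, 41 and 35.6 CPM in the ovary and 3.06 to 30.3 CPM in the uterus; the groups overlapped through uterus library 3 (1.42 ± 0.48, adjusted p = 0.109). GATA4 was called without that library (1.87, adjusted p = 0.0339) and in DESeq2 (adjusted p = 0.0265). Other factors called included NR5A1, FOXL2, GATA6, NR0B1 and ZFPM2, and 10 of the 11 calls held whichever single library was left out.

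**Figure D2:**
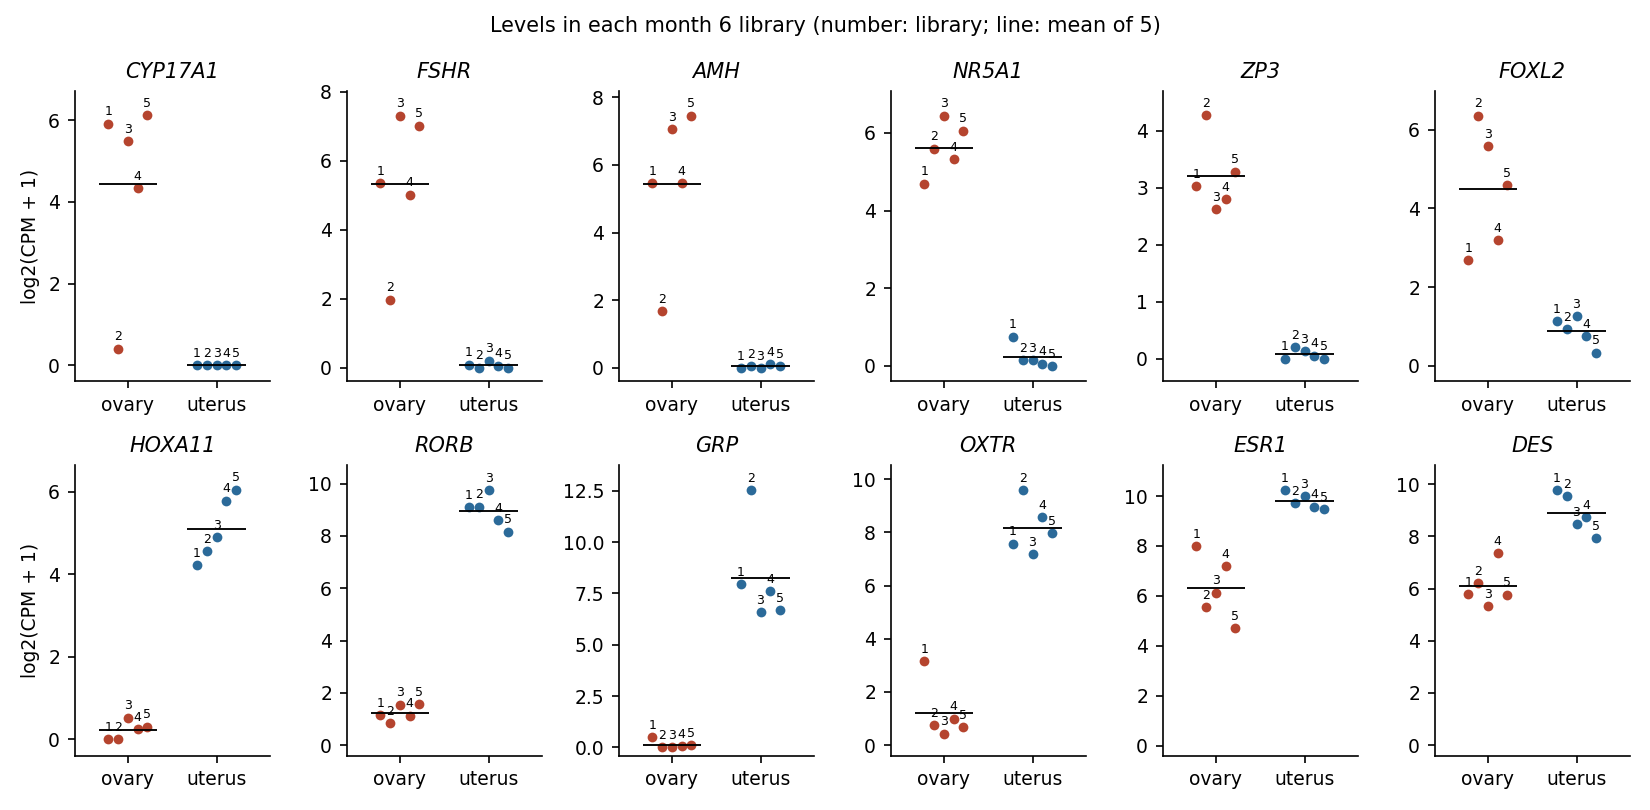
Each panel gives log2(CPM + 1) of 1 gene in the 5 ovary and 5 uterus libraries, numbered by individual, with the mean of each organ as a line. The ovarian genes of the upper row are low in ovary library 2 for CYP17A1, FSHR and AMH but not for NR5A1, ZP3 and FOXL2, and the uterine genes of the lower row do not overlap between organs.

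Müllerian duct and uterine transcription factors leaned to the uterus. Of 44 listed, 34 were tested: 9 were called higher in the uterus and 1, HOXC9, higher in the ovary, with a median of -1.75. The call of HOXC9 was lost in 6 of the 10 fits that left 1 library out (adjusted p from 0.0581 to 0.0742). With ovary libraries 1 and 4 left out, 21 of 35 were higher in the uterus (median -2.81), and with uterus library 3 left out as well 16 of 35 were. MSX1, a homeobox factor of the uterine lining, was at 4.32, 6.4, 12, 2.67 and 3.61 CPM in the ovary and 104, 42.8, 95.7, 26.6 and 35.8 CPM in the uterus (-3.39 ± 0.53, adjusted p = 0.00357). HAND2, a stromal factor that acts downstream of progesterone in the mouse, was at 2.35, 0.0404, 0, 2.6 and 0.175 CPM against 27.3, 26, 45, 72.5 and 77.5 CPM (-5.60 ± 1.22, adjusted p = 0.0192). In the ovary, HAND2 was highest in libraries 1 and 4, and uterus libraries 4 and 5 exceeded the other 3. FOXA2, the factor of uterine glands, followed the same ovary libraries, at 5.87, 0.141, 0, 5.64 and 0.039 CPM in the ovary and 16.1, 37.5, 20.3, 6.38 and 6.02 CPM in the uterus, and was not called (-2.89 ± 1.37, adjusted p = 0.272) although the groups did not overlap. FOXA2 was called with ovary libraries 1 and 4 left out (-8.10, adjusted p = 0.00368) and with uterus library 3 left out as well (-8.02, adjusted p = 0.00939). Since these libraries were chosen after seeing the data, and FOXA2 in the ovary lay mostly in libraries 1 and 4, these calls are a description only. The same holds for the list counts without these libraries.

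HOX genes were called in both directions. They are ordered along each cluster, and the higher-numbered ones pattern the caudal body and the Müllerian duct. Of 39 listed, 30 were tested: 5 were called higher in the uterus, all of them genes 9 to 11 of HOXA or HOXD, and 5 higher in the ovary, all of HOXC. HOXA11 was at 0, 0, 0.438, 0.184 and 0.234 CPM in the ovary and 17.6, 22.5, 28.9, 54.2 and 65.3 CPM in the uterus (-7.81 ± 1.03, adjusted p = 0.00182). HOXD11 was at 0, 0.202, 0.395, 0 and 0.078 CPM against 39.7, 33, 53.2, 65.2 and 61 CPM (-8.57 ± 0.92, adjusted p = 0.000878). HOXA10, which the uterus needs for implantation in the mouse, was at 0, 0.161, 2.54, 0.575 and 3.2 CPM against 50.5, 29.7, 45.3, 56.6 and 70.2 CPM (-5.27 ± 1.09, adjusted p = 0.0148). The lowest uterus library of each of these genes lay above the highest ovary library.

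HOXD10 (-5.79 ± 0.73, adjusted p = 0.00153) and HOXD9 (-1.37 ± 0.28, adjusted p = 0.0123) had the same direction; the fold of HOXD9 was below the threshold with ovary libraries 1 and 4 and uterus library 3 left out (-0.98), and its adjusted p was 0.0536 with all 40 libraries. Going the other way, HOXC8 was at 4.93, 16.8, 6.86, 12 and 10.3 CPM in the ovary and 0.909, 0.45, 0.438, 0.517 and 0.098 CPM in the uterus (4.36 ± 0.56, adjusted p = 0.00159), again without overlap. HOXC4 (2.11 ± 0.40, adjusted p = 0.00929) and HOXC6 (2.06 ± 0.28, adjusted p = 0.00203) were higher in the ovary too. HOXC4 did not pass with the block on the individual number (adjusted p = 0.0549). HOXC13, the remaining call, was lost in 4 of the 10 fits that left 1 library out (adjusted p from 0.052 to 0.0549) and without ovary libraries 1 and 4 (adjusted p = 0.0508). No HOXB gene was called. With ovary libraries 1 and 4 left out, 14 HOX genes were higher in the uterus and 4 higher in the ovary, of 31 tested. As these libraries were chosen after seeing the data, these counts are a description only.

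**Figure D3:**
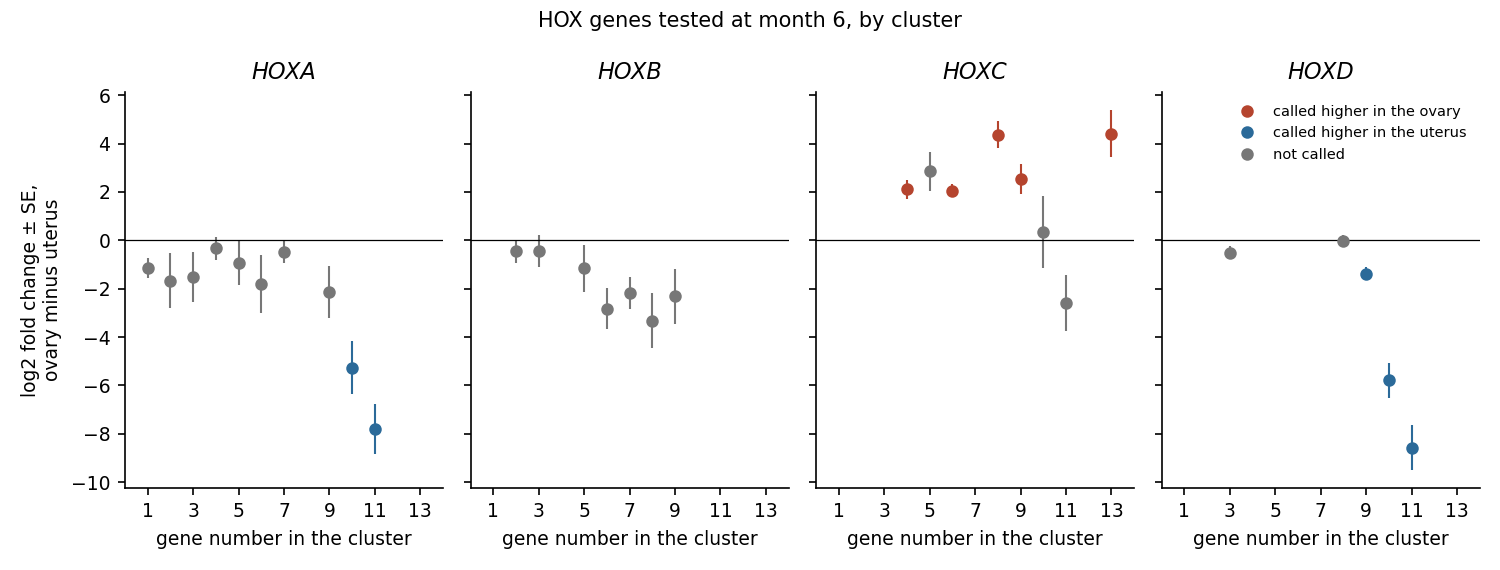
Points are log2 fold changes, ovary minus uterus, of the 30 HOX genes tested, with their SE, by cluster and by number in the cluster. HOXA10, HOXA11, HOXD9, HOXD10 and HOXD11 lie below 0 and are called, and the 5 called HOXC genes lie above 0.

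Genes of the uterine lining and its glands were called higher in the uterus for 4 of 20 tested, of 32 listed, and higher in the ovary for none (median -1.82), and with ovary libraries 1 and 4 left out 8 of 23 were. GRP, the gastrin-releasing peptide that uterine glands secrete in ruminants, was at 0.419, 0, 0, 0.046 and 0.078 CPM in the ovary and 248, 5841, 94.9, 194 and 101 CPM in the uterus (-13.37 ± 2.07, adjusted p = 0.00342). Every uterus library was far above every ovary library, and uterus library 2 stood well above the other 4. In limma-voom GRP did not pass (adjusted p = 0.0737). KL, the klotho co-receptor of endocrine FGF signals, was at 3.84, 6.24, 3.57, 11 and 4.07 CPM against 47.5, 43.4, 30.03, 30.7 and 25.9 CPM (-2.66 ± 0.33, adjusted p = 0.00143), with a narrow spread among uterus libraries. SPINK1, a secreted trypsin inhibitor, had 0 counts in the ovary and 6.59, 0.60, 1.35, 0.383 and 0.412 CPM in the uterus, at least 172-fold higher (adjusted p = 0.0185). It did not pass with ovary libraries 1 and 4 and uterus library 3 left out (adjusted p = 0.062) or with the block on the individual number (0.0661). CLDN10, a tight junction claudin, was the fourth, and its call was lost in 6 of the 10 fits that left 1 library out (adjusted p from 0.0584 to 0.0841).

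Secreted genes with large uterine means but no call rested on uterus library 2. SERPINA14, the uterine serpin or uterine milk protein of ruminants, was at 38.3, 6044, 1.94, 1.32 and 20.1 CPM in the uterus and 3.74, 12.2, 4.93, 1.52 and 4.7 CPM in the ovary (-7.82 ± 2.41, adjusted p = 0.0816). CXCL14, a chemokine of the uterine lining, was at 66.5, 2713, 11, 6.07 and 4.82 CPM in the uterus and 2.46 to 9.11 CPM in the ovary (-6.48 ± 1.90, adjusted p = 0.0692). IGFBP1, an IGF-binding protein of the receptive ruminant uterus, was at 0.51, 234, 0.237, 0.498 and 0.098 CPM in the uterus and at most 0.132 CPM in the ovary, and did not pass the filter on low counts. With all 40 libraries in 1 fit SERPINA14 (adjusted p = 0.00371) and CXCL14 (adjusted p = 0.00228) were called. LGALS15, a galectin of the ruminant uterine lining whose family members could share reads in counting, had 0 counts in the ovary and was at 21.2, 259, 0.566, 0 and 0 CPM in the uterus. Summed over the uterine epithelium and gland list, library 2 held 18022 CPM against 1259 to 1689 CPM in the other uterus libraries and 98.5 to 559 CPM in the ovary.

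Of 22 hormone receptor and target genes tested, 1 was called higher in the ovary (4.5%, beside 4.09% of all genes). In the uterus 2 were higher (9.1%, beside 2.63%). ESR1, the estrogen receptor alpha, was at 256, 45.7, 69.3, 146 and 25.4 CPM in the ovary and 1201, 836, 1013, 759.8 and 713 CPM in the uterus (-3.05 ± 0.57, adjusted p = 0.00875). In the ovary it was highest in libraries 1 and 4, and the groups did not overlap. SGK1, a kinase induced by steroids, was at 12.9, 17.6, 11, 21.9 and 8.21 CPM against 120.2, 322, 69, 37.5 and 53.4 CPM (-3.09 ± 0.58, adjusted p = 0.00869), highest in uterus library 2. PGR, the progesterone receptor, was at 160.2, 338, 101, 154 and 94.4 CPM in the ovary and 498, 240.2, 499, 429.6 and 335 CPM in the uterus; ovary library 2 lay within the uterine range, and the gene was not called (-1.26 ± 0.35, adjusted p = 0.0527). PGR was called without ovary library 2 (-1.68, adjusted p = 0.00644), without uterus library 2 (-1.40, adjusted p = 0.0379), in DESeq2 (adjusted p = 0.00763) and in limma-voom (adjusted p = 0.0298). ESR2, the estrogen receptor beta, overlapped between the organs (0.57 ± 0.48, adjusted p = 0.598), and GREB1, an estrogen target called higher in the ovary, lost its call in 8 of the 10 fits that left 1 library out (adjusted p from 0.0602 to 0.104).

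Oxytocin and prostaglandin genes were called for 3 of 24 tested, all higher in the uterus. OXTR, the oxytocin receptor, was at 7.89, 0.666, 0.351, 0.989 and 0.585 CPM in the ovary and 190.2, 768, 144, 382 and 252 CPM in the uterus (-7.33 ± 1.11, adjusted p = 0.00309). Ovary library 1 was the highest of its group and still far below every uterus library. HPGD, which inactivates prostaglandins, was at 3.89, 0.767, 8.07, 4.32 and 5.18 CPM against 52.2, 199.9, 40.5, 23.7 and 27.8 CPM (-3.94 ± 0.77, adjusted p = 0.0105). PLA2G4A, the phospholipase that releases arachidonic acid, was at 32.7, 18.8, 18.7, 29.5 and 17.7 CPM against 89.4, 305, 76, 56.4 and 63.2 CPM (-2.33 ± 0.48, adjusted p = 0.0141). Uterus library 2 was the highest for all 3 genes. It was also the highest for PTGS2, the inducible cyclooxygenase, which was at 83.7, 1576, 4.75, 10.9 and 6.74 CPM in the uterus and 3.35, 11.9, 3.22, 8.56 and 2.88 CPM in the ovary. PTGS2 was not called (-5.85 ± 1.71, adjusted p = 0.0684). It was called without uterus library 3 (adjusted p = 0.0484), with all 40 libraries in 1 fit (0.000368) and in that fit without 2 libraries of other ages (0.000123). HPGD did not pass with ovary libraries 1 and 4 and uterus library 3 left out (adjusted p = 0.0675). Neither HPGD (adjusted p = 0.0877) nor PLA2G4A (0.0608) passed with the block on the individual number.

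Smooth muscle genes were called higher in the uterus for 11 of 39 tested and higher in the ovary for none (median -0.89). JPH2, a junctional membrane protein of excitable muscle, was at 4.19, 5.02, 2.46, 6.46 and 6.35 CPM in the ovary and 85.6, 67.8, 35.5, 50.5 and 27.2 CPM in the uterus (-3.46 ± 0.38, adjusted p = 0.000913). PGM5, an adhesion plaque protein of smooth muscle, was at 83.5, 82, 75.2, 85.9 and 97 CPM against 462, 371, 779, 738 and 694 CPM (-2.85 ± 0.23, adjusted p = 0.000236), with a narrow spread in the ovary. DES, the intermediate filament desmin, was at 53.7, 72.9, 39, 164 and 53.6 CPM against 869, 743, 352, 422 and 241 CPM (-2.81 ± 0.46, adjusted p = 0.0044). Uterus libraries 1 and 2 were the highest for DES and JPH2 but the lowest for PGM5.

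Other smooth muscle calls included KCNMA1, KCNMB1, CNN1, ITGA8 and DTNA, and 9 of the 11 held whichever single library was left out. KCNMA1, a calcium-activated potassium channel, did not pass with ovary libraries 1 and 4 and uterus library 3 left out (adjusted p = 0.0597). The myosin and actin genes most used as markers were not called. MYH11, the smooth muscle myosin heavy chain, was at 340.5, 946, 623, 734 and 575 CPM in the ovary and 1408, 706, 846, 1148 and 928 CPM in the uterus (-0.67 ± 0.27, adjusted p = 0.173). ACTG2, the enteric smooth muscle actin, was at 18, 44.3, 37.4, 39.5 and 36.4 CPM against 137, 94.2, 40.8, 42 and 24.2 CPM, where libraries 1 and 2 exceeded the ovary and the other 3 overlapped it (-0.97 ± 0.44, adjusted p = 0.247). The summed level of the list was 3472, 7954, 6332, 5844 and 5506 CPM in the ovary and 15748, 12282, 8404, 9863 and 6814 CPM in the uterus, and the ranges overlapped.

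Secreted signals of the WNT family divided between the organs, with 8 of 51 tested higher in the uterus and 3 higher in the ovary (median -0.24). These shares were 15.7% and 5.9%, beside 2.63% and 4.09% of all genes tested. WNT2, a stromal ligand, was at 2.37, 0.807, 0.175, 4.03 and 0.819 CPM in the ovary and 39.6, 139.7, 84.4, 57.5 and 54.3 CPM in the uterus (-5.54 ± 0.77, adjusted p = 0.00224). LGR5, a receptor for R-spondins, was at 1.66, 0.444, 0.877, 2.46 and 0.546 CPM against 4.18, 24.9, 24.8, 37.1 and 71.3 CPM (-4.79 ± 0.77, adjusted p = 0.00401), with uterus library 1 nearest to the ovary. RSPO2, an R-spondin that enhances WNT signals and is known from mouse oocytes, had the opposite direction, at 1.29, 4.6, 3.14, 1.59 and 2.63 CPM in the ovary and 0, 0, 0.0731, 0 and 0.0392 CPM in the uterus (6.75 ± 0.96, adjusted p = 0.00239). FZD8, a WNT receptor, was also higher in the ovary, at 8.77 to 15.8 CPM against 2.63 to 4.23 CPM (1.61 ± 0.25, adjusted p = 0.00348). WNT5B, a ligand, and DKK3, a secreted protein of the Dickkopf family, were also called higher in the uterus. Of the 11 calls, 6 held whichever single library was left out.

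Members of the TGF-beta, activin and BMP families were called on both sides, 9 of 54 tested higher in the ovary and 6 higher in the uterus (median 0.20). The ovarian set included AMH, its receptor AMHR2, INHA, BMP15, GDF9 and the BMP antagonist NOG. On the uterine side, GDF7, a BMP-type ligand, was at 0.0484, 0.182, 0, 0.092 and 0 CPM in the ovary and 7.13, 6.3, 22.8, 13.6 and 13 CPM in the uterus (-7.59 ± 0.92, adjusted p = 0.00135). CHRDL2, a secreted BMP antagonist, was at 0.339, 0.121, 0, 0.23 and 0.136 CPM against 23.4, 3.23, 8.02, 2.3 and 4.25 CPM (-5.60 ± 0.98, adjusted p = 0.00612), highest in library 1. BMP3 was at 1.92, 1.23, 2.1, 5.41 and 2.3 CPM against 6.27, 8.4, 35.6, 108 and 70.1 CPM (-4.17 ± 0.82, adjusted p = 0.0112), and uterus libraries 3, 4 and 5 lay well above libraries 1 and 2. In limma-voom BMP3 did not pass (adjusted p = 0.0861). BMP4 was called too (-1.55 ± 0.29, adjusted p = 0.00918) but not with ovary libraries 1 and 4 and uterus library 3 left out (adjusted p = 0.0799). Of the 15 calls of these families, 10 held whichever single library was left out.

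Other growth factor genes were called in both directions. MET, the receptor for hepatocyte growth factor, was at 33.5, 25.3, 8.75, 88 and 17 CPM in the ovary and 105, 201, 318, 289.8 and 254 CPM in the uterus (-2.80 ± 0.56, adjusted p = 0.0119), and its ligand gene HGF overlapped between the organs (-1.12 ± 0.53, adjusted p = 0.265). FGF1, an acidic fibroblast growth factor, was at 70.8, 117, 52.8, 48.4 and 65 CPM against 16, 19.4, 40.3, 21.1 and 23.3 CPM (1.55 ± 0.30, adjusted p = 0.00965). In that list of FGF, EGF, HGF and KIT genes, 3 of 38 tested were higher in the ovary and 3 higher in the uterus, including KL. These shares were 7.9% each, beside 4.09% and 2.63% of all genes tested. IGFBP5, an IGF-binding protein, was at 351, 1223, 847, 675 and 668 CPM in the ovary and 309, 126, 195, 171 and 245 CPM in the uterus (1.82 ± 0.33, adjusted p = 0.00721), lowest in ovary library 1. IGFBP5 was the only call higher in the ovary among 22 IGF genes tested, and 1 was called higher in the uterus. These shares were 4.5% each, beside 4.09% and 2.63% of all genes tested. IGF1 (-0.86 ± 0.48, adjusted p = 0.373) and IGF2 (1.33 ± 0.43, adjusted p = 0.0982) were not called. IGF2 was called without ovary library 1 (1.57, adjusted p = 0.021), without ovary libraries 1 and 4 (1.41, adjusted p = 0.0405) and in DESeq2 (adjusted p = 0.0263). FGF1 (adjusted p = 0.0525) and IGFBP5 (0.0676) did not pass with the block on the individual number.

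In the list of laminin, elastic fibre and proteoglycan genes, 3 of 49 tested were called higher in the ovary and 5 higher in the uterus. These shares were 6.1% and 10.2%, beside 4.09% and 2.63% of all genes tested. The 3 higher in the ovary were LAMA1, LAMC3 and NID2, which are parts of basement membranes. LAMA1, a laminin alpha chain, was at 230.2, 752, 629, 539 and 589.9 CPM in the ovary and 11.1, 22.7, 23.9, 17.6 and 16.2 CPM in the uterus (4.89 ± 0.35, adjusted p = 0.000236). NID2, which links laminin to collagen IV, was at 45.3, 92.3, 152, 99.7 and 94.8 CPM against 21.6, 20.3, 20.7, 15.8 and 19.3 CPM (2.30 ± 0.27, adjusted p = 0.00116), and LAMC3, a laminin gamma chain, had the same direction (2.54 ± 0.42, adjusted p = 0.00471). COL4A3 was at 52.4, 33.9, 69, 28.7 and 57.6 CPM against 2.71, 4.58, 2.56, 0.517 and 0.98 CPM (4.43 ± 0.58, adjusted p = 0.00175), and COL4A4, which pairs with it in basement membranes, at 88.3, 30.9, 179, 55.5 and 160.2 CPM against 11.5, 14.5, 8.15, 1.61 and 6.82 CPM (3.61 ± 0.65, adjusted p = 0.00703). For LAMA1 and NID2 ovary library 1 was the lowest, and no library of these genes overlapped the other organ.

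The genes higher in the uterus included POSTN and TNC, matrix proteins of remodelling tissue. POSTN, periostin, was at 91.3, 24.5, 34.7, 36.4 and 36.9 CPM in the ovary and 442, 2327, 1115, 2481 and 3173 CPM in the uterus (-5.41 ± 0.63, adjusted p = 0.00119). TNC, tenascin C, was at 8.95, 6.26, 4.23, 15.4 and 6.59 CPM against 512, 216, 248, 256 and 193 CPM (-5.13 ± 0.43, adjusted p = 0.000271). Uterus library 1 was the lowest for POSTN and the highest for TNC. Among collagen genes, 4 of 40 tested were called in each direction (10% each, beside 4.09% and 2.63% of all genes). The fibrillar collagen COL3A1 was not called (-1.09 ± 0.52, adjusted p = 0.27). The uterus was higher in COL19A1 (-6.52 ± 1.25, adjusted p = 0.00981), COL7A1 (-2.76 ± 0.53, adjusted p = 0.00929) and COL15A1 (-1.43 ± 0.23, adjusted p = 0.0044). COL19A1 did not pass with the block on the individual number (adjusted p = 0.0771).

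Among secreted proteases, ADAMTS19 was at 1.26, 0.121, 0.0438, 2.85 and 0.604 CPM in the ovary and 24.4, 22.8, 44, 53.3 and 35.1 CPM in the uterus (-5.23 ± 0.93, adjusted p = 0.00649). ADAMTS5, which cleaves proteoglycans, was at 24.5, 34.4, 16.8, 47.1 and 16.7 CPM against 153, 154, 208, 386 and 259 CPM (-3.09 ± 0.37, adjusted p = 0.00125). MMP16, a membrane-bound metalloprotease, was higher in the ovary, at 37.1, 79.3, 64.7, 28.3 and 73 CPM against 13.7, 16.3, 14.1, 5.33 and 11.2 CPM (2.22 ± 0.36, adjusted p = 0.00439). None of these genes overlapped between the organs. In all, 4 of 34 tested were called in each direction (11.8% each, beside 4.09% and 2.63% of all genes). MMP1, interstitial collagenase, was at 235, 304, 0.201, 0 and 0 CPM in the uterus, in libraries 1 and 2 almost alone, and at most 0.351 CPM in the ovary, and did not pass the filter.

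Of 28 lymphocyte genes tested 3 were called, all higher in the uterus (10.7%, beside 2.63% of all genes tested). The median was -0.36, with 11 of the 28 above 0, and it was 0.03 with ovary libraries 1 and 4 and uterus library 3 left out. Summed over the list, the organs overlapped, at 93.6 to 318 CPM in the ovary and 115 to 843 CPM in the uterus. GZMA, granzyme A of cytotoxic lymphocytes, was at 1.66, 1.41, 1.16, 1.4 and 0.741 CPM in the ovary and 10.6, 9.96, 25.4, 8.64 and 12 CPM in the uterus (-3.38 ± 0.37, adjusted p = 0.000878), and CCL5, a chemokine of such cells, at 0.23 to 0.807 CPM against 1.82 to 5.97 CPM (-2.38 ± 0.47, adjusted p = 0.0111). Both were highest in uterus library 3, which also held the highest JCHAIN, the joining chain of antibody polymers, at 17.4, 14.3, 622, 37.5 and 20.4 CPM over the uterus libraries. NKG7, the remaining call, was lost in 7 of the 10 fits that left 1 library out (adjusted p from 0.0718 to 0.111). Of 22 complement genes tested, 2 were higher in the ovary (9.09%, beside 4.09% of all genes) and 1 higher in the uterus (4.55%, beside 2.63%).

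Neuronal genes were called in both directions, 4 of 25 tested higher in the ovary and 3 higher in the uterus. These shares were 16% and 12%, beside 4.09% and 2.63% of all genes tested. SYT1, a synaptic vesicle calcium sensor, was at 46.2, 101, 82.4, 36.2 and 73.5 CPM in the ovary and 8.99, 6.06, 2.94, 8.33 and 5.94 CPM in the uterus (3.38 ± 0.38, adjusted p = 0.00104). UCHL1, a deubiquitinase of neurons that mouse oocytes also hold, was at 37.4, 32.7, 66, 25.1 and 86.6 CPM against 3.11, 2.12, 4.22, 9.64 and 9.19 CPM (3.13 ± 0.54, adjusted p = 0.00532). NEFL, a neurofilament chain, was at 1.85, 1.63, 6.95, 4.32 and 5.34 CPM against 0.207, 0.0375, 0.183, 0.134 and 0.0392 CPM (5.03 ± 0.67, adjusted p = 0.00188), and NEFH was the fourth. RET, the receptor for GDNF-family ligands, was higher in the uterus, at 4.29, 2.02, 0.197, 3.01 and 0.819 CPM against 21.8, 8.78, 36.1, 14.2 and 18.8 CPM (-3.27 ± 0.71, adjusted p = 0.0184). STMN2, also called higher in the uterus, did not pass without ovary library 5 (adjusted p = 0.0586) or without ovary libraries 1 and 4 (adjusted p = 0.0744). RET (adjusted p = 0.079), STMN2 (0.0522) and NEFH (0.0536) did not pass with the block on the individual number.

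Vessel genes were called at shares near those of all genes, 2 of 31 tested higher in the ovary (6.45%, beside 4.09%) and 1 higher in the uterus (3.23%, beside 2.63%). PECAM1, an adhesion protein of blood vessel endothelium, was at 93.8, 92.4, 47.7, 95.4 and 70.1 CPM in the ovary and 179, 203, 109, 184 and 182 CPM in the uterus (-1.12 ± 0.23, adjusted p = 0.0137), but was not called when all 40 libraries were fitted together (adjusted p = 0.176). MMRN1, a matrix protein of lymphatic endothelium, was at 171, 284, 621, 221 and 534 CPM against 77.8, 62.3, 89.2, 72.9 and 70.6 CPM (2.30 ± 0.36, adjusted p = 0.00348), highest in ovary libraries 3 and 5. PDPN, podoplanin, known from lymphatic endothelium and mesothelium, was at 74.1, 67.2, 75.9, 106 and 71.4 CPM against 21.7, 31.7, 26.1, 8.78 and 10.4 CPM (2.00 ± 0.34, adjusted p = 0.00495). LYVE1, a hyaluronan receptor of lymphatic vessels and macrophages, was not called (-0.61 ± 0.23, adjusted p = 0.144). In retinoic acid handling, CRABP1, a cellular retinoic acid-binding protein, was higher in the uterus, at 18.7, 2.0, 0.307, 2.83 and 1.17 CPM against 68.2, 269, 78.2, 164 and 169 CPM (-4.87 ± 1.04, adjusted p = 0.0177).

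Large differences also lay in genes outside these lists. Among those with at least 10 CPM in the higher organ and no overlap, DEFB112, a beta-defensin, was at 6.29, 0.343, 97.7, 15.9 and 63.2 CPM in the ovary and at 0 counts in the uterus, at least 3190-fold higher (adjusted p = 0.0196). SCN10A, a voltage-gated sodium channel of sensory neurons, was at 8.11, 0.787, 46.9, 13.9 and 26.6 CPM and at 0 counts in the uterus, at least 1685-fold higher (adjusted p = 0.00733). SLC1A6, a glutamate transporter, was at 5.0, 46.4, 26.9, 5.87 and 32.2 CPM against 0, 0.075, 0, 0 and 0 CPM (10.40 ± 1.18, adjusted p = 0.00112). DEFB112 and SCN10A, like FSHR, were highest in ovary libraries 3 and 5 and lowest in library 2, whereas SLC1A6 was highest in library 2. DEFB112 did not pass in limma-voom (adjusted p = 0.129), nor with ovary libraries 1 and 4 and uterus library 3 left out (adjusted p = 0.0504).

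On the uterine side, RORB, an orphan nuclear receptor of the retinoid-related family, had the smallest adjusted p of the named genes. It was at 1.21, 0.787, 1.93, 1.2 and 1.99 CPM in the ovary and 550.2, 554, 857, 386 and 285 CPM in the uterus (-8.52 ± 0.45, adjusted p = 2.74e-05). S100G, the calcium-binding protein calbindin-D9k, was at 0.0968, 0, 0, 0.874 and 0 CPM against 670.3, 753, 51.8, 36.2 and 22 CPM (-10.72 ± 1.80, adjusted p = 0.00498), with uterus libraries 1 and 2 above the other 3. MCOLN3, a cation channel of lysosomes, was at 54.2, 109.6, 15.6, 2.4 and 4.57 CPM in the uterus and had 2 counts in the whole ovary group; the ratio of the means was 4806, with a counting interval of 1330 to 39690 (adjusted p = 0.00183). PRSS16, a serine protease known from the thymus, was at 71.3, 5.57, 14.9, 1.48 and 4.92 CPM in the uterus and also had 2 counts in the ovary group, a ratio of 2719 with an interval of 752 to 22460 (adjusted p = 0.00224). S100G (adjusted p = 0.108) and MCOLN3 (adjusted p = 0.0565) did not pass in limma-voom. PDE11A, which degrades cyclic nucleotides, was at 2.71, 3.19, 1.6, 1.56 and 1.99 CPM against 72, 57, 66.8, 205 and 247 CPM (-5.89 ± 0.55, adjusted p = 0.000584), and DLX6, a homeobox factor, at 0.145, 0.444, 0.0438, 0.138 and 0.117 CPM against 11, 11.8, 32.4, 11.5 and 16 CPM (-6.53 ± 0.63, adjusted p = 0.000613).

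Several ovarian genes outside the lists had a small adjusted p. SOX6, an SRY-box transcription factor, was at 44.3, 75.3, 44.5, 58.1 and 34.2 CPM in the ovary and 3.86, 2.59, 2.28, 3.18 and 4.88 CPM in the uterus (3.90 ± 0.29, adjusted p = 0.000236). KCNAB1, a potassium channel beta subunit, was at 92.9, 89.6, 213, 74.1 and 195 CPM against 4.11, 3.19, 1.68, 2.3 and 3.59 CPM (5.48 ± 0.44, adjusted p = 0.000236). GLCCI1, a gene induced by glucocorticoids, was at 48.7, 106, 87.4, 61.7 and 79.95 CPM against 9.58, 10.5, 12.4, 12.4 and 10.7 CPM (2.77 ± 0.21, adjusted p = 0.000236). All 5 ovary libraries lay well above all 5 uterus libraries for each of these genes, and KCNAB1 was highest in ovary libraries 3 and 5.

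**Figure D4:**
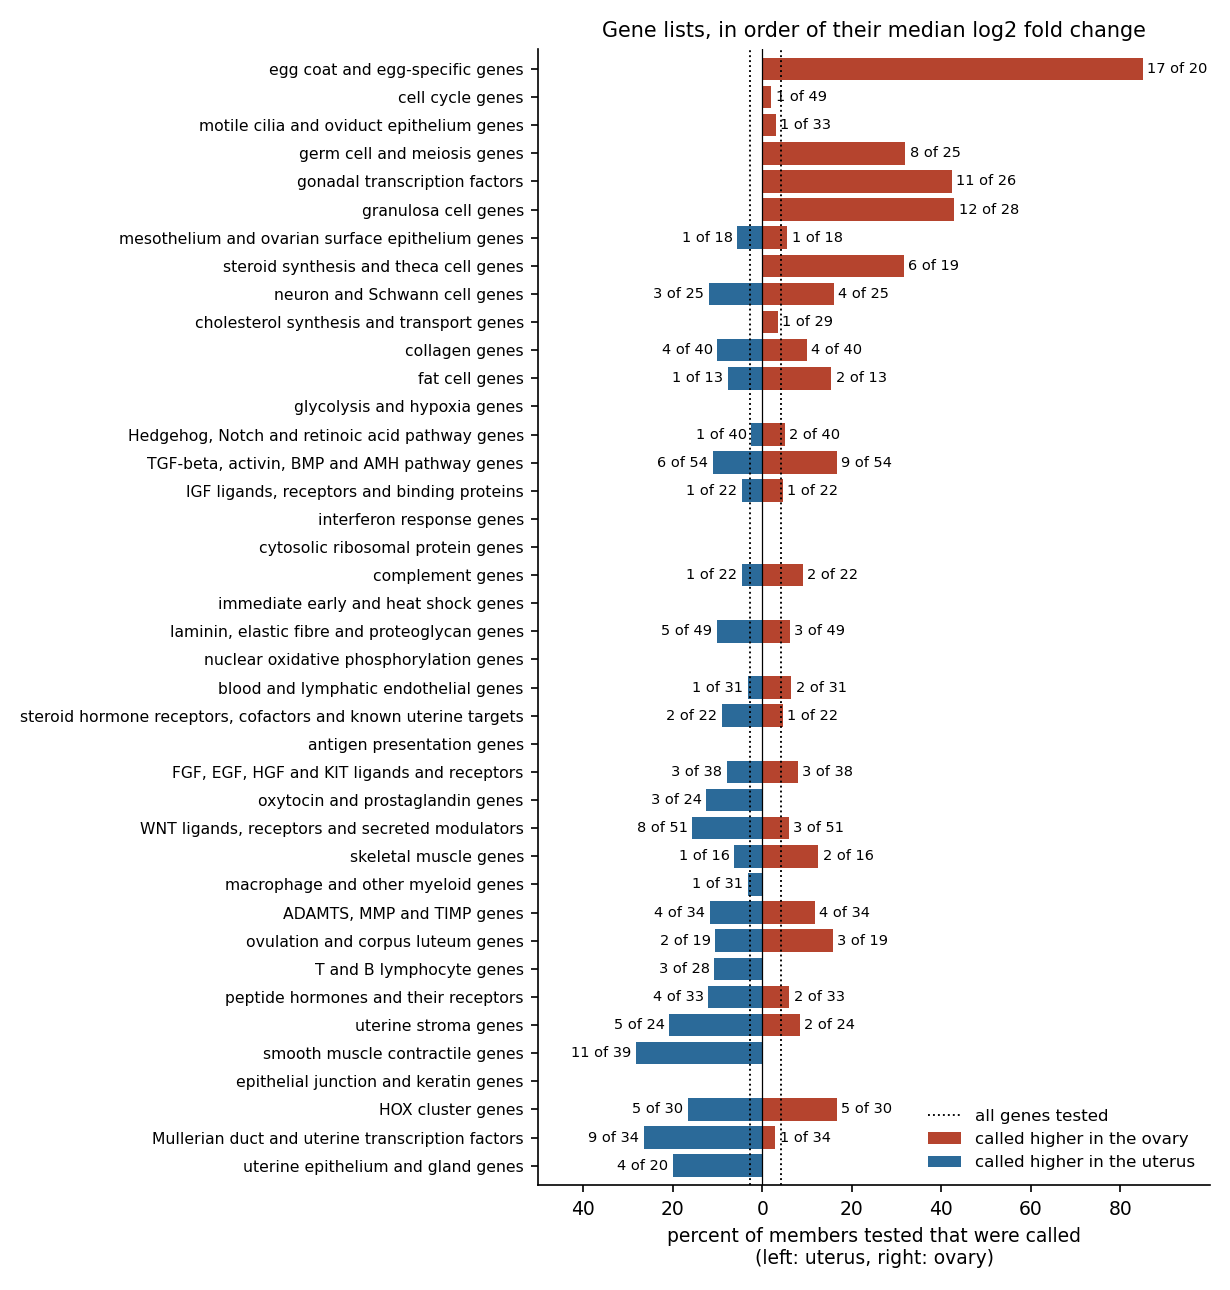
Bars give the percent of tested members of each gene list that were called higher in the ovary (right) or in the uterus (left), with the counts, for lists with at least 10 members tested, ordered by median log2 fold change. Dotted lines mark 4.09% and 2.63%, the shares of all genes tested. Oocyte genes reach 17 of 20, and the cell cycle and cilia lists stand near the top by their median with 1 call each.

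The epithelial result depended on 2 ovary libraries. Of 43 epithelial junction and keratin genes tested, edgeR called 0, DESeq2 6 and limma-voom 5. In edgeR 10 had an unadjusted p under 0.05, beside 20.4% of all genes tested. The median was -1.10, and 36 of 43 were below 0. Their summed CPM was 3048, 458, 401, 2661 and 419 in the ovary and 2347, 3076, 2321, 1383 and 1503 in the uterus, so that ovary libraries 1 and 4 lay within the uterine range and the other 3 far below it. With these libraries left out, 32 of 44 were called higher in the uterus (median -4.14), and with uterus library 3 left out as well, 31 of 44 (median -4.18). Ovary libraries 1 and 4 were chosen for high levels of motile cilia and epithelial genes. The counts without these libraries, and the values of EPCAM and CDH1 without them, are therefore a description only. EPCAM, an epithelial adhesion protein, was at 260.0, 6.01, 1.56, 204 and 3.51 CPM in the ovary and 187, 436, 134, 85.7 and 95.8 CPM in the uterus (-0.98 ± 1.22, adjusted p = 0.744), and its log2 fold change without ovary libraries 1 and 4 was -5.68 (adjusted p = 0.00365). CDH1, E-cadherin, was at 108, 4.92, 2.46, 244 and 5.77 CPM against 116, 267, 164, 132 and 166 CPM (-1.25 ± 1.07, adjusted p = 0.602), and -5.27 without them (adjusted p = 0.000716).

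Genes of motile cilia and oviduct epithelium followed the same ovary libraries together with uterus library 3. Their summed CPM was 2671, 188, 101, 2426 and 137 in the ovary and 111, 121, 1278, 134 and 141 in the uterus. All 33 tested had a log2 fold change above 0 (median 1.63), but 1, MNS1, was called (3.03%, beside 4.09% of all genes). MNS1 was not called without uterus library 4 (adjusted p = 0.0513) or 5 (adjusted p = 0.0506) or without ovary libraries 1 and 4 (adjusted p = 0.0501). The median was -2.30 with ovary libraries 1 and 4 left out and -0.46 with uterus library 3 left out as well, so the list's median changed sign with these libraries. FOXJ1, the master regulator of motile cilia, was at 124, 0, 0.351, 79.7 and 0.078 CPM in the ovary and 4.85, 2.19, 67.9, 1.44 and 0.431 CPM in the uterus (1.46 ± 1.94, adjusted p = 0.765); with ovary libraries 1 and 4 left out its log2 fold change was -6.69. DNAH5, an axonemal dynein, was at 430.3, 3.23, 0.767, 574 and 3.27 CPM against 3.99, 11.3, 114, 4.0 and 3.61 CPM (2.90 ± 1.76, adjusted p = 0.416). OVN had 5700.5, 0, 0, 6.19 and 4.19 CPM in the ovary, nearly all in library 1, and at most 0.244 CPM in the uterus, and was not called (adjusted p = 0.0584). It was called without ovary library 2 (adjusted p = 0.0421) or 3 (0.0469), with all 40 libraries in 1 fit (0.00504) and in that fit without 2 libraries of other ages (0.00466).

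Mesothelium and ovarian surface epithelium genes moved with these libraries too, with summed CPM of 3366, 348, 273, 1890.3 and 321 in the ovary and 1199, 855, 938, 679.5 and 818 in the uterus. MSLN, mesothelin, was at 53.3, 0.0807, 2.54, 36.5 and 1.99 CPM in the ovary and 7.14, 15.6, 7.49, 4.89 and 4.98 CPM in the uterus (1.24 ± 1.16, adjusted p = 0.636). Of the 18 genes tested 1 was called in each direction (5.6% each, beside 4.09% and 2.63% of all genes). With ovary libraries 1 and 4 left out 6 were higher in the uterus. MSLN had a log2 fold change of -2.35 with those libraries left out. The part of oviduct, surface or other epithelial cells in the organ differences was not tested.

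**Figure D5:**
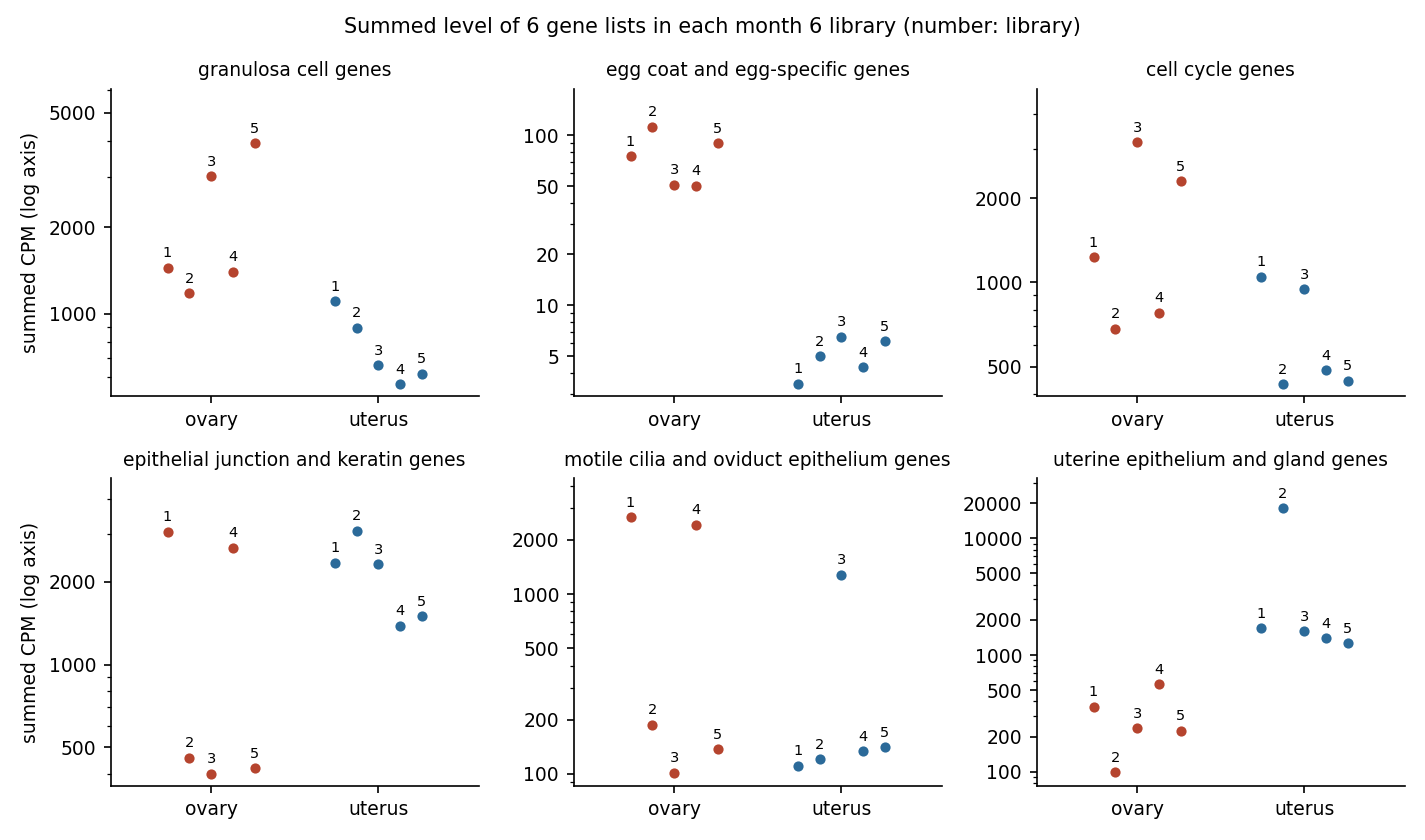
Each panel gives the summed CPM of 1 gene list in each library, on a log axis, numbered by individual. Ovary libraries 1 and 4 lie with the uterus for epithelial genes and with uterus library 3 for cilia genes, ovary libraries 3 and 5 are the highest for granulosa and cell cycle genes, and uterus library 2 is the highest for gland genes.

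Cell cycle genes were mostly above 0 without being called. Of 49 tested, 48 had a log2 fold change above 0 (median 2.05), while 1, AURKA, was called by edgeR (2.04%, beside 4.09% of all genes). In edgeR 26 had an unadjusted p under 0.05, beside 20.4% of all genes tested. DESeq2 called 16 and limma-voom 3, and edgeR called 10 with all 40 libraries in 1 fit and 20 without 2 libraries of other ages. AURKA, a mitotic kinase that oocytes also use, was at 16.8, 30.2, 28.1, 11.6 and 29.98 CPM in the ovary and 4.53, 0.488, 3.87, 0.69 and 0.451 CPM in the uterus (3.55 ± 0.73, adjusted p = 0.0142). TOP2A, a topoisomerase of dividing cells, was at 179, 17.7, 607, 74.2 and 453 CPM against 112, 6.17, 116, 3.74 and 7.27 CPM (2.49 ± 1.18, adjusted p = 0.272). The summed CPM of the list was 1233, 684, 3182, 781 and 2301 in the ovary and 1049, 432, 948, 486 and 445 in the uterus. Ovary libraries 3 and 5, the highest for FSHR and AMH, were the highest here, and uterus libraries 1 and 3 lay above ovary libraries 2 and 4.

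Lists of broad cell functions held no call by edgeR. They were 55 cytosolic ribosomal protein genes (median 0.14), 30 nuclear oxidative phosphorylation genes (0.05), 29 glycolysis and hypoxia genes (0.21), 33 immediate early and heat shock genes (0.08), 21 antigen presentation genes (-0.06) and 30 interferon response genes (0.16). At an unadjusted p under 0.05 in edgeR these lists held 0, 1, 5, 3, 3 and 2 genes in that order, beside 20.4% of all genes tested. DESeq2 called 0, 0, 1, 2, 2 and 0 of them, and limma-voom called 0 in each. Macrophage and other myeloid genes held 1 call among 31 tested, FLT3, and it was lost in 9 of the 10 fits that left 1 library out (adjusted p from 0.0547 to 0.104).

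The spread within an organ was largest for genes of the libraries that stood apart. In the ovary the largest SDs over the 5 libraries, on the log2(CPM + 1) scale, included OVN, DNAH5, FOXJ1 and RARRES1, a retinoid-responsive gene at 5678, 9.83, 11.7, 579.7 and 28.4 CPM. In the uterus they included LGALS16, SERPINA14, MMP1, CXCL14, LGALS15, PTGS2, IGFBP1 and IL1R2, the decoy receptor for interleukin 1, which were highest in library 2 in each case. IL1R2 was at 0.542, 284, 0.694, 0.0958 and 0.314 CPM over the uterus libraries. POLE2, a DNA polymerase subunit, differed from these, at 623, 2.06, 2.47, 3.83 and 3.59 CPM in the uterus, nearly all in library 1, and 5.18, 5.39, 11.9, 2.85 and 9.47 CPM in the ovary (-4.19 ± 1.70, adjusted p = 0.189); without uterus library 1 its log2 fold change was 1.22.

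Whether the organ difference was the same at month 2 was tested with the 10 ovary and uterus libraries of that age. In this fit 0 of 19479 genes were called by edgeR (0.0%), 1641 had an unadjusted p under 0.05 (8.42%), limma-voom called 0 and DESeq2 called 75. At month 2 FSHR was at 141, 95.3, 162, 112 and 112 CPM in the ovary and at most 0.0841 CPM in the uterus, and the change in organ difference, month 6 minus month 2, was -1.02 ± 1.59 (adjusted p = 0.862). OXTR was at 2.67, 2.9, 2.8, 2.61 and 0.88 CPM in the ovary and 86.5, 36.5, 43.1, 272 and 160.0 CPM in the uterus at month 2 (-1.77 ± 1.05, adjusted p = 0.636). GRP was at 5.89, 23.5, 15.6, 29.8 and 5.78 CPM in the uterus at month 2, where every library was below every uterus library of month 6 (-5.24 ± 2.38, adjusted p = 0.58). A p that misses the threshold does not show that the difference was the same at both ages.

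TFPI, RGS16, CEMIP, RGS17 and MMP1 had the 5 smallest p in this comparison among genes with a symbol other than a LOC or assembled-locus identifier. They were chosen after their values were seen, and each had an adjusted p of 0.277. TFPI, an inhibitor of the clotting cascade, was at 7.65, 17.4, 5.99, 19.5 and 8.44 CPM in the uterus at month 2 and 74.7, 216, 102, 175 and 42 CPM at month 6, without overlap, while the ovary stayed within 5.67 to 12.7 CPM at month 2 and 7.63 to 16 CPM at month 6 (-3.09 ± 0.59). CEMIP, which breaks down hyaluronan, was at 1.07, 2.17, 2.42, 3.9 and 2.73 CPM in the uterus at month 2 and 38.3, 59.7, 20.02, 6.44 and 3.45 CPM at month 6, while the ovary stayed within 2.8 to 7.2 CPM and 1.07 to 3.4 CPM (-4.11 ± 0.81). RGS16, a regulator of G protein signals, was at 63.4, 29.6, 67.5, 59.1 and 65.9 CPM in the ovary at month 2 and 22.5, 22.6, 26.5, 12.5 and 20.5 CPM at month 6, and at 1.41, 2.37, 2.33, 2.03 and 3.19 CPM in the uterus at month 2 and 8.77, 21, 3.64, 2.76 and 3.08 CPM at month 6 (-3.33 ± 0.65). Every ovary library of month 6 was below every one of month 2 for RGS16, and uterus libraries 1 and 2 of month 6 were the highest of the uterus. PAMR1, a secreted peptidase domain protein, was not called in this fit (-2.47 ± 0.54, adjusted p = 0.308) and was called without ovary month 6 library 4 (-3.11, adjusted p = 0.00498).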

How the data were processed

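RNA of whole ovaries and uteri was extracted with TRIzol and made into Illumina libraries, per the labels' protocols. The deposited values are raw read counts per gene, whole numbers that the authors made with RSEM 1.3.0, HISAT2, fastp 0.23.1 and StringTie 1.3.3b among their tools, per the submitters' processing notes. No source used here names the build or annotation, or says how strand and multi-mapping reads were handled, and counts of overlapping genes and near-identical copies are therefore uncertain. All 28910 NCBI gene numbers of the table were matched to symbols of the RefSeq ARS1.2 table, used for names only, and 1139 assembled loci kept their identifiers.

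The month 6 libraries were fitted alone with edgeR 4.0.16 in R 4.3.3 (robust quasi-likelihood, TMM scaling, filterByExpr). The comparison with month 2 tested the change of the organ difference, month 6 minus month 2, over 20 libraries. Folds against 0 counts are bounds against 3 counts over the group. On simulated counts of 17767 genes, of which 200 were changed, the month 6 fit recovered 61% of changes of 2 log2 units and 6% of changes of 1. In the data 1214 genes were called. The adjusted p depends on how many genes differ, so these shares may be lower than in the data. Recovery meant an adjusted p under 0.05 with the right sign, without the fold threshold. Genes of low counts were not changed in the simulation, so these shares do not cover them. Alternatives were other scalings, filters, fits and tools (DESeq2 1.42.0, limma 3.58.1).

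The members and the gene lists were chosen with earlier results of these data known. Genes named by rule were a reference list, those with the largest folds, smallest p or largest spread, and up to 4 called members of a list per direction. Others were chosen after their values were seen. Some genes that these rules name are not reported here.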

Additional observations from a re-analysis of the deposited data

Results flagged for a closer look

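On the log2(CPM + 1) scale, 336 groups of 5 libraries with any difference were examined for the genes named and for 6 list sums, and in 43 the highest or lowest library stood apart from the other 4 by most of the group's range. Chance gives about 1 in 20 groups, a rate that does not hold for these: some genes were named for their spread, and where counts are near 0 a single library above 0 stands apart by construction.

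Uterus library 2 was the high one for GRP at 5841 CPM, IGFBP1 at 234 CPM, IL1R2 at 284 CPM, PLA2G4A at 305 CPM, PNMT at 5.72 CPM and the summed uterine epithelium and gland list at 18022 CPM. Uterus library 3 was high for the summed motile cilia list, at 1278 CPM, and for JCHAIN, at 622 CPM, and low for PECAM1, at 109 CPM. Uterus library 1 was high for POLE2, at 623 CPM, and for TNC, at 512 CPM.

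Ovary library 1 was high for OVN, at 5700.5 CPM, and for OXTR, at 7.89 CPM, and low for LAMA1, at 230.2 CPM, and ACTG2, at 18 CPM. Ovary library 2 was high for TDRD5, at 8.48 CPM, LHX8, at 11 CPM, NKG7, at 4.74 CPM, and DLX6, at 0.444 CPM. Ovary library 4 was high for DKK3, at 52.9 CPM, PDPN, at 106 CPM, and S100G, at 0.874 CPM. Ovary library 5 was high for INHBA, at 31 CPM, and PIWIL2, at 9.55 CPM.

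The remaining values were of genes near 0 in that organ. In the uterus, library 1 stood apart for CYP11A1 (0.159 CPM), NR5A1 (0.686 CPM), NLRP9 (0.0638 CPM), SMC1B (0.0638 CPM), TDRD5 (0.0638 CPM) and ZP4 (0.0319 CPM). In library 2 they were HOXC13 (0.075 CPM), CKM (0.0375 CPM), KHDC3L (0.0563 CPM), PIWIL2 (0.131 CPM) and SLC1A6 (0.075 CPM). In library 3 they were CYP19A1 (0.11 CPM), LHX8 (0.237 CPM) and NLRP5 (0.11 CPM), and in library 4 INHA (0.479 CPM). In the ovary, they were GRP in library 1 (0.419 CPM), PRSS16 in library 1 (0.0323 CPM), GALR2 in library 2 (0.161 CPM) and MCOLN3 in library 5 (0.039 CPM).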

How the results depend on the processing

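No gene called at month 6 had the opposite sign under an alternative in which it was tested, and of 127 named genes that were called, 114 were called whichever single library was left out. With 1 library left out, the count of called genes ran from 847 to 1256, those higher in the ovary from 548 to 747 and those higher in the uterus from 299 to 509, the lowest without ovary library 5. The count was 1951 in DESeq2 (1130 higher in the ovary, 821 higher in the uterus), 2075 with all 40 libraries in 1 fit (1241 and 834), 2456 without 2 libraries of other ages (1451 and 1005), and 627 when edgeR's glmTreat tested against a log2 fold change of 1 (419 and 208). A filter of 1 CPM in 5 libraries gave 491 higher in the ovary and 393 higher in the uterus, from fewer genes tested. Chosen after seeing the data, the fit without ovary libraries 1 and 4 gave 821 and 935, and that without uterus library 3 as well 775 and 748. The other scalings, limma-voom, no filter and no fold threshold gave 1172 to 1340. The cause was not tested except where fewer genes or libraries entered.

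The comparison with month 2 gave 0 called genes, 75 in DESeq2, 0 to 1 with 1 library left out (1 without ovary month 6 library 4) and 1 in each fit with the 2 or 3 libraries left out; the gene was PAMR1 in all of these fits but DESeq2, with adjusted p from 0.00498 to 0.0408.

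Ovary and uterus libraries share the numbers 1 to 5, and the labels do not say that a number is 1 goat. The deviations of same-numbered libraries had 5 correlations from -0.115 to 0.211 (median 0.0759). Those of the 20 differently numbered pairs ran from -0.391 to 0.298 (median 0.0002). Of the 5 ovary libraries, 1 correlated best with its own number. So few pairs cannot decide whether a number is 1 goat. A replicate block on the number gave 750 called genes (457 higher in the ovary and 293 higher in the uterus), of which 666 were called without it. The oocyte list went from 17 to 13 calls, germ cell genes from 8 to 5, gonadal factors from 11 to 8 and granulosa genes from 12 to 10. Of the named genes that were called, 22 were not called in the block, among them BMP15 (adjusted p = 0.0648), WEE2 (0.0743), DAZL (0.0929), GDF9 (0.086), HPGD (0.0877), PLA2G4A (0.0608), IGFBP5 (0.0676), FGF1 (0.0525), COL19A1 (0.0771), RET (0.079), HOXC4 (0.0549) and DHRS3 (0.0529).

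Of genes that were not called, several changed sign. In limma-voom, the replicate block, and the fits without ovary libraries 1 and 4 and without uterus library 3 as well, log2 fold changes were -1.43, -1.36, -6.69 and -3.91 for FOXJ1, -0.88, -0.41, -2.35 and -2.35 for MSLN, and -2.47, -3.01, -5.26 and -5.39 for RARRES1, which was -2.13 without ovary library 1 alone. DNAH5 was at -3.46 and -1.22 in the last 2 of these fits. INHBA was at 1.34 in limma-voom, 1.65 in the block, 1.81 without uterus library 2 and 0.073 without ovary libraries 1 and 4. With 1 library left out, IL1R2 ran from -5.98 to 1.65 (1.65 without uterus library 2), POLE2 from -4.52 to 1.22 (1.22 without uterus library 1), JCHAIN from -2.44 to 0.46 (0.46 without uterus library 3), and RARRES1 from -2.13 to 1.44. PNMT ran from -1.35 (without ovary library 3) to 1.17 (without uterus library 2) and was at 0.19 in limma-voom and 0.68 in the block. In the block IL1R2 was at 0.79 and POLE2 at 0.31, and JCHAIN was at 0.040 without ovary libraries 1 and 4 and uterus library 3. In simulated counts with 200 genes changed, changes of 1 log2 unit were rarely recovered, a share that may be lower than in the data.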

Other observations

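In the list of peptide hormones and their receptors, 2 of 33 tested were called higher in the ovary, FSHR and LHCGR, and 4 higher in the uterus, beside 4.09% and 2.63% of all genes tested. The 4 were GRP, OXTR, GALR2 and RAMP3, which modifies receptors of the calcitonin family and was not called without ovary library 5 (edgeR adjusted p = 0.051). GALR2, a receptor for galanin, was at 0, 0.161, 0, 0 and 0 CPM in the ovary and 1.67, 2.12, 2.52, 3.24 and 1.98 CPM in the uterus, without overlap (-6.10 ± 1.11, edgeR adjusted p = 0.00752).

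Among Hedgehog, Notch and retinoic acid genes, 2 of 40 tested were called higher in the ovary and 1, CRABP1, higher in the uterus, shares of 5% and 2.5% that lie near the 4.09% and 2.63% of all genes tested. HEY2, a transcriptional repressor that Notch signals induce, was at 16.4, 14.8, 30.4, 22.8 and 32.8 CPM in the ovary and 3.97, 4.0, 3.29, 5.94 and 3.86 CPM in the uterus (2.47 ± 0.29, adjusted p = 0.00129). DHRS3, which reduces retinaldehyde, was at 101, 124, 208, 158 and 235 CPM against 62.6, 75.3, 57.7, 61.2 and 45.6 CPM (1.44 ± 0.25, adjusted p = 0.00538). Neither overlapped between the organs, and both were highest in ovary libraries 3 and 5. DHRS3 did not pass with the block on the individual number (adjusted p = 0.0529).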
